A study of Homo sapiens with 3 samples.

Results

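The loci described here are stretches of the genome that held 4 or more separate RNA 3′ ends on the same strand. They were found in counts of poly(A) ends from HEK293T, a line grown from human embryonic kidney that is widely used in culture. The counts of the 3 libraries were added, positions within 24 nt of the highest were merged into a site, and nuclear sites with at least 20 counts were joined into a locus where neighbouring sites lay at most 2000 nt apart. Sites under 5% of a locus were dropped, and a locus was kept if at least 4 ends and 300 summed counts remained. This gave 1028 loci with 4644 ends, of 11307 loci with at least 1 end and 300 counts, 5504 of which had 2 or more ends. The choice thus used the summed counts, of which the RNA labelled for 30 min gave 21.9%, that labelled for 60 min 10.2% and the input 67.9%.

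RNA of 3 kinds was sequenced, with 1 library each, so differences have no replicates to be checked against. RNA labelled with the nucleoside analogue 4-thiouridine (4sU) for 30 min was captured through the analogue, as was RNA labelled for 60 min. The third library was the RNA from which the 30 min sample was captured, called input here and steady-state RNA in the study's design, whose title names the 30 min labelling while its treatment field reads none. All 3 were made by 2P-seq, a method that sequences RNA from its poly(A) tail, and per the labels the 4sU libraries left out the initial poly(A) selection. No label says whether the input also left it out, so capture and selection cannot be told apart.

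A nascent RNA is cut and given a poly(A) tail where the cleavage and polyadenylation machinery recognises a poly(A) signal. A gene with several such signals makes RNAs that end at different places, and the longer forms carry extra sequence that can hold binding sites for microRNAs and RNA-binding proteins. Captured 4sU RNA is enriched for young molecules, while input RNA holds molecules of all ages. The first end of a locus is its most upstream, the last its most downstream, and all between are inner ends, with the strand of the tables taken as that of the RNA. No source used here names the genome build. Positions on chromosome 1 reach 249223263, and no annotation or sequence of a build that holds them was at hand. Loci are therefore given by position, without gene names, sequences or a check of cell type markers, and a locus can join ends of neighbouring genes.

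Totals were 14159691 counts (30 min), 8926568 (60 min) and 35410931 (input), of which 31.8%, 31.1% and 7.46% were mitochondrial and not used. The 1028 loci took 4.23%, 3.09% and 3.87% of the nuclear counts. A locus had a median of 215.5 counts in 30 min 4sU (21 to 13784), 97.5 in 60 min 4sU (11 to 5676) and 601.5 in input (5 to 31811). Shares at a locus were compared only where both libraries had at least 50 counts, which 984 loci met for 30 min 4sU and input, 804 for 60 min 4sU and input, and 807 for the labelling times. Intervals at single loci are 95% intervals of counting error, and reads of PCR copies are not independent molecules. As these are bulk libraries of a culture, fewer cells making an RNA and less of it per cell cannot be told apart.

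Most of the loci had 4 or 5 ends. There were 653 loci with 4 ends, 267 with 5, 70 with 6, 28 with 7, 9 with 8 and 1 with 9. The first and last ends lay a median of 1947.5 nt apart (lower and upper quartile 1237.75 and 2753.5, range 117 to 6384). Neighbouring ends lay a median of 358 nt apart, and 765 of the 3616 gaps (21.2%) were under 100 nt. In 82 gaps the distance was over 2000 nt, because a weak site between them had been dropped. The loci split almost evenly between strands, with 523 on plus and 505 on minus. Of the 4644 ends, 34 had at least 90% of their counts at a single position. At the lower edge of the choice, 27 loci had fewer than 330 summed counts, and 32 further loci with 4 or more ends had at least 270 but under 300 and were left out. Among the loci with 4 ends, 197 had an end at 5 to 6% of the locus, and 212 loci with 3 ends had lost a site at 4 to 5%.

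The strongest end of a locus was an inner one about as often as inner ends are among all ends. Among the 804 loci with 50 counts in every library, 2023 of the 3631 ends were inner ones (55.7%). The end with the most counts was an inner one in 429 loci in 30 min 4sU (53.4%), 413 in 60 min 4sU (51.4%) and 438 in input (54.5%). It was the last end in 229, 243 and 198 loci, and the first end in 146, 148 and 168. The median share of the last end was 18.0% in 30 min 4sU, 19.3% in 60 min 4sU and 15.6% in input. For the first end it was 14.2%, 13.5% and 15.3%, and for the inner ends together 56.8%, 53.6% and 57.6%. The order was thus the same for every class in both captured libraries: last ends above input, first and inner ends below. Weighted by use, the mean end lay at 0.495 of the way from first to last end in 30 min 4sU, 0.520 in 60 min 4sU and 0.451 in input (medians).

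Where a locus had exactly 4 ends, the median share of the fourth end was above input in both captured libraries, and those of the first and second were below it. Over 511 such loci, the median share of the fourth end was 20.2% in 30 min 4sU, 21.9% in 60 min 4sU and 17.3% in input. The first end had 15.8%, 14.8% and 17.3%, and the second 17.9%, 17.0% and 18.4%. The third end, with 17.1%, 16.8% and 15.5%, had a median change against input of 0.0823 points at 30 min and -0.254 at 60 min. Over 210 loci with 5 ends, the fifth end had 16.3%, 17.9% and 14.1%, and its median change was 0.554 points at 30 min and 2.92 at 60 min. The first end there had 12.9%, 11.7% and 11.8%, and the second 14.3%, 11.9% and 13.3%, so at 30 min both medians were above input, unlike those of the loci with 4 ends. Their median changes against input were -0.216 and 0.214 points at 30 min, and -1.64 and -1.54 at 60 min.

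**Figure D1:**
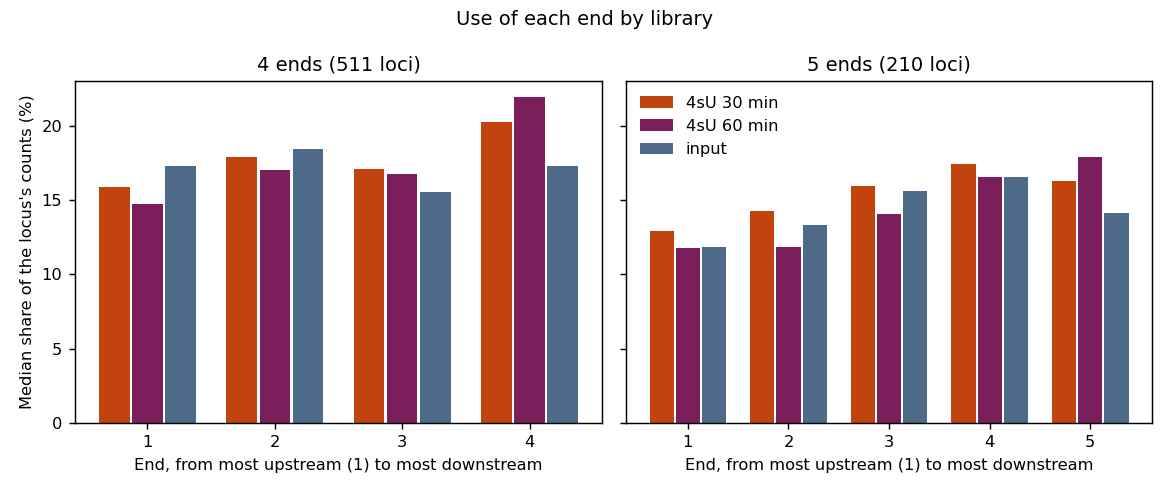
Bars show the median share of a locus's counts (%) at each end, from the most upstream to the most downstream, for 511 loci with 4 ends and 210 loci with 5 ends with at least 50 counts in every library. Medians are over loci, not replicates, and each library is a single one; the last end is lowest in input, at 17.3% and 14.1%.

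The first comparison was between RNA captured after 30 min of labelling and input, and asks how the shares of the ends differ between them. The share of the last end was higher in 30 min 4sU at 169 of 984 loci (17.2%) and lower at 94 (9.55%), where a change needs at least 10 percentage points and an interval that leaves out 0. Over all 5307 loci with 2 or more ends, which include those with 4 or more, 18.5% were called higher and 9.76% lower. By this measure alone, the last end of loci with many ends moved about as often as in the background. The median change was 1.70 points, with quartiles of -3.47 and 7.80, against 1.61 over all these loci. The first end was higher at 103 loci and lower at 152, or 10.5% and 15.4%, against a background of 9.67% and 18.1%. Inner ends were higher at 120 and lower at 153, or 12.2% and 15.5%, against a background of 284 and 316 of 2370 loci with 3 or more ends, the lower calls being 13.3%. With ends and loci picked from the 30 min 4sU counts alone, the last end was higher at 40 and lower at 40 of 356 loci, and when neighbouring sites had to lie within 500 nt, at 38 and 46 of 389.

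The largest gain of a last end was at a locus of 5 ends on the plus strand of chromosome 14, from 103802763 to 103805230. Its last end held 501 of 673 counts in 30 min 4sU (74.4%), 294 of 505 in 60 min 4sU (58.2%) and 12 of 230 in input (5.22%). In input, 208 of the 230 counts (90.4%) lay at the third end, at 103804313, which had 8 counts in 30 min 4sU and 20 in 60 min 4sU. The captured and input libraries thus used different ends of this locus almost entirely. The other 4 ends had 1, 0, 9 and 12 counts in input, under the minimum of 20 for a site. They were kept only through the captured libraries, so their high shares there, and the gain of the last end, are tied to the choice. Scaled to nuclear counts, the locus's level in 30 min 4sU was 9.93 times that in input. Its first end had 92 counts in 30 min 4sU, 102 in 60 min 4sU and 1 in input, and 88.7% of its counts lay at a single position. The difference in the last end against input was 69.2 points at 30 min (64.2 to 73.1).

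On the minus strand of chromosome 16, 4 ends lay between 23477912 and 23475645, 2267 nt apart. The last held 1386 of 1671 counts in 30 min 4sU (82.9%), 877 of 1037 in 60 min 4sU (84.6%) and 997 of 2750 in input (36.3%). The first and second ends held 4.07% and 8.02% in 30 min 4sU, against 27.6% and 27.9% in input. The last end was 46.7 points above input at 30 min (44.1 to 49.2), and 48.3 at 60 min (45.4 to 51.0). A locus on the minus strand of chromosome 4, from 1816018 to 1813208, was alike in form: its last end held 945 of 1146 counts in 30 min 4sU (82.5%), 475 of 576 in 60 min 4sU (82.5%) and 929 of 2201 in input (42.2%). The first end ran the other way, with 9.25% in 30 min 4sU, 7.64% in 60 min 4sU and 880 of 2201 counts in input.

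On chromosome 3, the minus-strand locus from 48702040 to 48700417 showed a graded pattern. From first to last, its shares were 6.79%, 15.1%, 24.1% and 54.0% in 30 min 4sU, against 21.3%, 56.1%, 14.3% and 8.23% in input. The upstream pair of ends was lower in captured RNA and the downstream pair higher. In 60 min 4sU the last end held 73 of 172 counts (42.4%), between the other libraries. Wide spacing was seen on the minus strand of chromosome 10, where 5 ends lay between 15150561 and 15144585. The last, 5976 nt from the first, held 107 of 196 counts in 30 min 4sU (54.6%), 73 of 127 in 60 min 4sU (57.5%) and 164 of 952 in input (17.2%). The 8 largest gains ranged from 32.0 to 69.2 points, at loci spanning 1535 to 5976 nt.

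Losses of the last end were smaller, from 20.5 to 43.1 points for the 8 largest. The largest was on the minus strand of chromosome 13, from 77457567 to 77454312, where the last end held 432 of 1067 counts in 30 min 4sU (40.5%), 350 of 644 in 60 min 4sU (54.3%) and 2134 of 2553 in input (83.6%). Its first 3 ends lay within 318 nt of each other and the last lay 3255 nt from the first. The second held 412 counts in 30 min 4sU (38.6%), 167 in 60 min 4sU (25.9%) and 255 in input (9.99%). All 3 upstream ends were above input in both captured libraries, and the second was so by less at 60 min. The first end held 10.6% at 30 min and 10.1% at 60 min, a change of -0.497 points (-3.39 to 2.59). The third held 10.3% (8.62 to 12.3) and 9.63% (7.58 to 12.2), so neither differed clearly between labelling times. Another locus of the same strand and chromosome, from 100616773 to 100615281, had 33.2%, 34.4% and 57.8% at its last end and 50.4%, 49.4% and 27.4% at its second end, in 30 min 4sU, 60 min 4sU and input. Here the labelling times differed by 1.20 points at the last end, with an interval of -3.54 to 6.12. The most compact of the 8 spanned 198 nt on the plus strand of chromosome 17, from 33290005 to 33290203, and its last end held 201 of 638 counts in 30 min 4sU (31.5%) and 292 of 541 in input (54.0%).

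**Figure D2:**
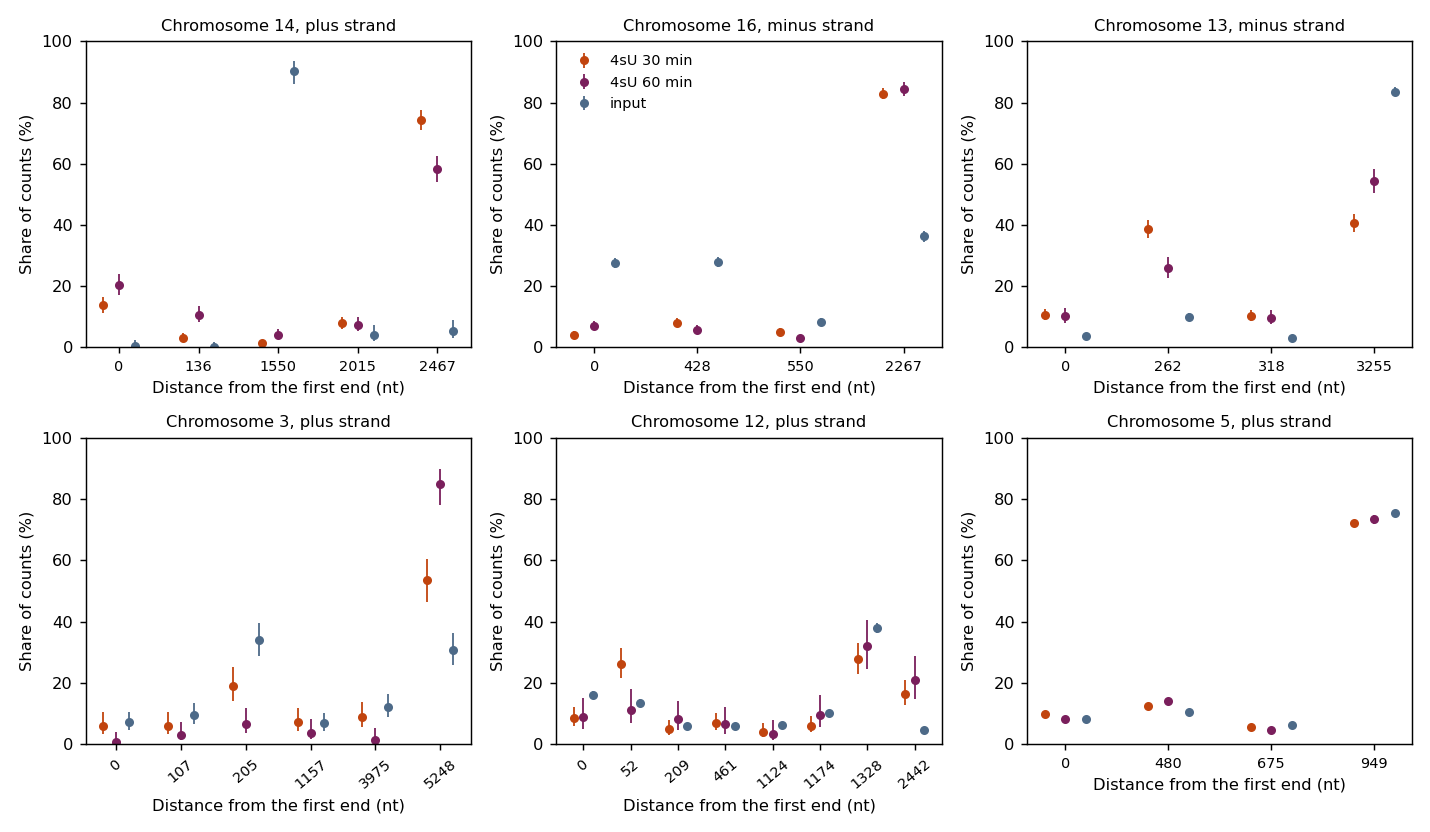
Points show the share of a locus's counts (%) at each end, placed by its distance from the first end (nt, not to scale between ends), with Wilson 95% intervals of counting error, in 30 min 4sU, 60 min 4sU and input (1 library each). Among loci with 100 counts in every library, those on chromosomes 14, 16 and 13 have the largest gain, the second largest gain and the largest loss of the last end at 30 min, that on chromosome 3 has the largest gain from 30 to 60 min, and those on chromosomes 12 and 5 have the most ends and the most counts.

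The second comparison set RNA captured after 60 min against the same input, which is that of the 30 min labelling, so both comparisons share it. The last end was higher at 224 of 804 loci (27.9%) and lower at 73 (9.08%), where the background was 22.1% and 11.1%. The median change was 2.94 points, with quartiles of -3.16 and 11.03, against 1.94 over all loci with 2 or more ends. The first end was higher at 83 loci and lower at 120 (10.3% and 14.9%), against a background of 11.4% and 18.4%. Inner ends were higher at 96 and lower at 181 (11.9% and 22.5%), against a background of 12.6% and 18.4%. The median change of the last end was 4.86 points at the 238 loci with at least 200 counts in both libraries, and 0.0397 points with gaps of at most 500 nt.

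Of the loci with at least 100 counts in every library, the largest gain at 60 min was on the plus strand of chromosome 3, from 93845425 to 93850673. Its sixth and last end held 99 of 185 counts in 30 min 4sU (53.5%), 118 of 139 in 60 min 4sU (84.9%) and 92 of 298 in input (30.9%). The third end, strongest in input with 101 counts (33.9%), had 35 in 30 min 4sU (18.9%) and 9 in 60 min 4sU (6.47%). All of its other ends also had a smaller share at 60 min than at 30 min. The largest loss was on the minus strand of chromosome 6, from 3270344 to 3269210, with 225 of 452 counts at the last end in 30 min 4sU (49.8%), 48 of 173 in 60 min 4sU (27.7%) and 232 of 382 in input (60.7%). The third end, at 3269598, took 21.0%, 45.1% and 11.8%. That end and the last thus changed rank between the captured libraries.

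**Figure D3:**
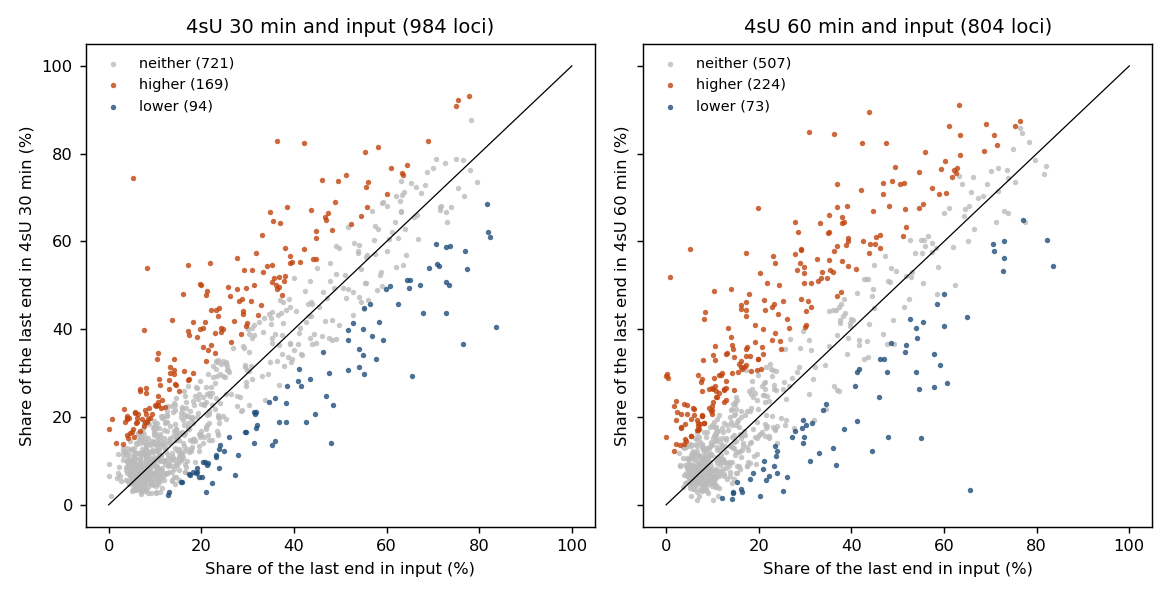
Each point is a locus, placed by the share of its counts at the last end in input (x, %) and in a captured library (y, %), with the line of equal shares; colours mark changes of at least 10 points with an interval that leaves out 0. Orange points, 169 at 30 min and 224 at 60 min, lie above the line, and blue points, 94 and 73, below it.

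The third comparison was between the labelling times and asks whether the shares of the ends differ with a longer window of labelling. The last end was higher at 60 min at 105 of 807 loci (13.0%) and lower at 51 (6.32%), while 9.73% and 8.45% of all 4542 loci with 2 or more ends were higher and lower. At loci with 2 or 3 ends it was higher at 337 and lower at 333 of 3735, and whether this differs from the loci with many ends could not be tested. The median change was 1.79 points at the loci with 4 or more ends, 0.486 at those with 3 ends and 0 at those with 2. Loci with fewer ends also spanned less, with a median of 635.5 nt at 2 or 3 ends. First ends were higher at 50 loci and lower at 49 (6.20% and 6.07%, background 8.81% and 7.33%). Inner ends were higher at 59 and lower at 113 (7.31% and 14.0%, background 6.76% and 10.6%).

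At the locus on the plus strand of chromosome 1 from 87810664 to 87814604, the last of 5 ends held 56 of 114 counts in 60 min 4sU (49.1%), against 75 of 323 in 30 min 4sU (23.2%), and 14.1% in input. The third end held 17 counts at 60 min (14.9%), against 156 at 30 min (48.3%). The strongest end was thus the last at 60 min and the third at 30 min. A locus on the minus strand of chromosome 3, from 97664184 to 97663095, had 152 of 199 counts at its last end at 60 min (76.4%), against 165 of 330 at 30 min. In input the same end held 73.5%, and its difference from input was -23.5 points at 30 min (-29.2 to -17.9) and 2.87 at 60 min (-3.73 to 8.53). On the minus strand of chromosome 10, from 119042605 to 119040005, the last end held 93 of 139 counts at 60 min (66.9%), against 119 of 323 at 30 min (36.8%), and 44.7% in input. The second end held 25.9% at 60 min, against 43.7% at 30 min, so the strongest end again differed. Lower use of the last end at 60 min was seen on the minus strand of chromosome 7, from 44619497 to 44617496, where the last end held 21.4% at 60 min, against 41.6% at 30 min, and 18.2% in input. A compact locus on the minus strand of chromosome 3, from 48731201 to 48730886, had 54 of 115 counts at its last end at 60 min (47.0%), against 218 of 321 at 30 min (67.9%), and 38.5% in input. Its second end, 50 nt from the first, held 31.3% at 60 min, against 11.8% at 30 min.

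Median changes of the last end were larger with the distance between the first and last ends, in loci with many ends as in loci with few. At 30 min against input, the median change was 0.290 points in 183 loci spanning under 1000 nt, 0.760 in 329 spanning 1000 nt or more but under 2000, 2.82 in 272 spanning 2000 or more but under 3000, and 3.84 in 200 wider loci. At 60 min against input these classes had 0.0615, 2.58, 4.18 and 6.14 points, and for 60 against 30 min they had 0.356, 1.39, 1.98 and 3.32. In the widest class 68 of 175 loci were higher and 11 lower at 60 min than in input (38.9% and 6.29%). In the narrowest, 19 of 148 were higher and 14 lower (12.8% and 9.46%). Of the loci with 2 or 3 ends, 39 of 90 in the widest class were higher and 8 lower, and 403 of 2371 in the narrowest were higher and 295 lower. At like spans, loci with 2 or 3 ends changed against input by as much or more: 0.912, 2.82, 3.41 and 5.69 points at 30 min, and 0.675, 3.44, 5.23 and 8.74 at 60 min. Between labelling times they changed by -0.145, 0.323, 1.66 and 2.73 points, less in each class than the loci with many ends. No test of these differences between classes was possible with 1 library a group.

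**Figure D4:**
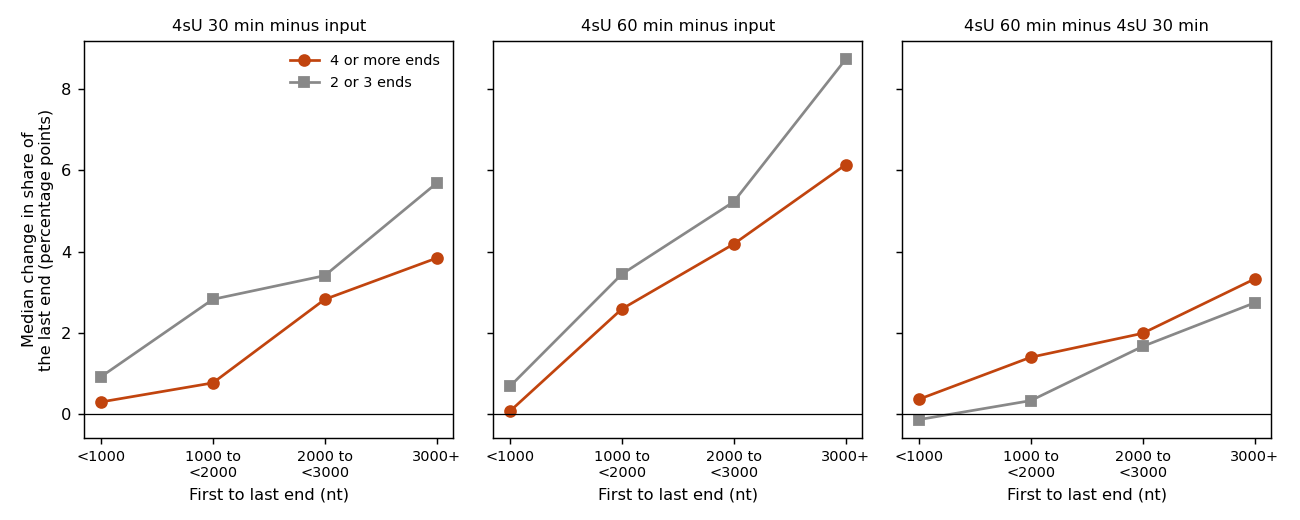
Points show the median change in the share of the last end (percentage points) by the distance from first to last end (nt), for loci with 4 or more ends and for those with 2 or 3; medians are over loci, and panels give 30 min minus input, 60 min minus input and 60 minus 30 min. In loci with 4 or more ends, the medians run from 0.290 to 3.84, from 0.0615 to 6.14 and from 0.356 to 3.32 points.

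In nucleotides, the mean end weighted by use lay a median of 27.0 nt further downstream in 30 min 4sU than in input and 49.96 nt further in 60 min 4sU. Its interval left out 0 on the downstream side at 356 loci and on the upstream side at 201 at 30 min (36.2% and 20.4%, background 35.4% and 20.6%). At 60 min these were 329 and 136 loci (40.9% and 16.9%, background 35.3% and 19.9%). Between labelling times the mean end lay a median of 24.9 nt further downstream at 60 min, with 188 loci downstream and 101 upstream (23.3% and 12.5%, background 19.5% and 17.5%). Against input, these medians turned to -0.488 nt at 30 min and -0.737 nt at 60 min when ends had to lie within 500 nt of a neighbour.

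The loci also differed by how abundant they were in captured RNA. A locus's level in 30 min 4sU was a median of 1.08 times that in input, each scaled to the library's nuclear counts (CPM), with quartiles of 0.624 and 2.18. Where this ratio was under 0.5, the last end changed by a median of 3.64 points, with 25 loci higher and 4 lower of 145. It changed by 2.82 points in 311 loci with a ratio of 0.5 to 1, with 65 higher and 16 lower, and by 1.95 in 254 loci with a ratio of 1 to 2, with 43 higher and 25 lower. In 274 loci with a ratio of at least 2 the median was -0.407, with 36 higher and 49 lower. Among loci spanning at least 2000 nt the same 4 classes had medians of 5.61, 4.92, 4.63 and -1.67 points. At 60 min the medians by level at 60 min were 2.99, 3.76, 4.34 and 1.01 points. Loci with 2 or 3 ends ran in the same order at 30 min, with medians of 2.80 in 601 loci, 2.29 in 1175, 1.70 in 1192 and 0.158 in 1355. Of these, 128, 238, 256 and 191 were higher and 30, 90, 119 and 185 lower. At 60 min their medians were 1.82, 1.94, 1.86 and 1.24 points. The level and the shares come from the same counts, and whether one bears on the other was not tested.

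The most abundant loci differed in level and in end use. The one with the most counts, on the plus strand of chromosome 5 from 179156977 to 179157926, had 555 CPM in 30 min 4sU, 587 in 60 min 4sU and 971 in input. Its last end held 72.2% (3865 of 5353 counts), 73.5% (2651 of 3609) and 75.4% (23985 of 31811). The use of its 4 ends was thus nearly the same in every library, within 3.20 points at the last end. A locus on the minus strand of chromosome 1, from 59247164 to 59246465, was instead far above input, at 1428 CPM in 30 min 4sU, 923 in 60 min 4sU and 177 in input. Its first end held 7220 of 13784 counts in 30 min 4sU (52.4%), 2738 of 5676 in 60 min 4sU (48.2%) and 2130 of 5815 in input (36.6%). Its last end ran the other way, with 27.0%, 37.6% and 41.6%, so that 60 min 4sU lay between 30 min 4sU and input at both outer ends.

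On chromosome 17, a minus-strand locus from 73774332 to 73772517 changed between upstream ends. Its second end held 7842 of 11951 counts in 30 min 4sU (65.6%), 2488 of 4097 in 60 min 4sU (60.7%) and 7614 of 17864 in input (42.6%). The first end held 20.9%, 17.4% and 36.1%, and the last 8.31%, 14.4% and 11.5%. On the plus strand of chromosome 6, from 36570067 to 36571208, the first of 4 ends held 72.2%, 68.6% and 52.7%, and every other end held less in both captured libraries than in input. At neither locus was the last end called as changed. At the locus on the minus strand of chromosome 1 from 245017717 to 245016691 the last end differed from input by 0.538 points at 30 min (-0.192 to 1.32) and by -2.02 at 60 min (-2.78 to -1.15). None of these is past 10 points.

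Among loci with 100 counts in every library, the most ends found were 8. Of those loci, the one with the most counts, on the plus strand of chromosome 12 from 93895103 to 93897545, had its strongest end seventh in all libraries, with 27.7% of 307 counts in 30 min 4sU, 32.0% of 125 in 60 min 4sU and 37.9% of 3543 in input. Its last end held 16.3%, 20.8% and 4.57%. On the minus strand of chromosome 1, from 160000366 to 159994748, the first 2 of 8 ends held 17.9% and 21.4% in 30 min 4sU, 9.09% and 26.7% in 60 min 4sU, and 4.76% and 13.6% in input. The last end there held 7.30%, 9.70% and 12.7%, the reverse of the locus on chromosome 12. On the plus strand of chromosome 2, from 238950187 to 238951235, the first of 8 ends held 17.5% in 30 min 4sU, 45.9% in 60 min 4sU and 45.0% in input.

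How evenly a locus used its ends was measured by the Shannon entropy of the shares, in bits, which is 0 when a single end is used and 2 when 4 ends are used alike. The median was 1.74 bits in 30 min 4sU, 1.69 in 60 min 4sU and 1.72 in input over the 804 loci with 50 counts in all libraries. Given as the number of equally used ends with the same entropy, the medians were 3.34, 3.23 and 3.30. At 30 min against input, 166 of 984 loci had an entropy at least 0.2 bits higher and 135 lower, with intervals that left out 0 (16.9% and 13.7%, background 17.8% and 10.6%), and the median change was 0.00306 bits. At 60 min 106 of 804 loci were higher and 177 lower (13.2% and 22.0%, background 15.0% and 16.5%), with a median of -0.0391. Few counts lower an entropy, and over all 1028 loci the median was 97.5 counts in 60 min 4sU against 601.5 in input. At 60 min against 30 min 50 of 807 were higher and 126 lower (6.20% and 15.6%, background 5.57% and 11.5%), with a median of -0.0464, and -0.0362 when both libraries were brought to the lower of their counts.

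The direction against input turned with the library that picked the ends. With ends and loci picked from input alone, entropy at 30 min was higher at 56 and lower at 126 of 713 loci, and at 60 min higher at 35 and lower at 160 of 615. With 30 min 4sU alone, it was higher at 109 and lower at 15 of 356 loci at 30 min, and higher at 76 and lower at 51 of 355 at 60 min. With every library given the same weight, it was higher at 262 and lower at 103 of 1099 loci at 30 min, and higher at 176 and lower at 131 of 872 at 60 min. An end is kept only where it passes the minimum share in the counts that pick it.

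**Figure D5:**
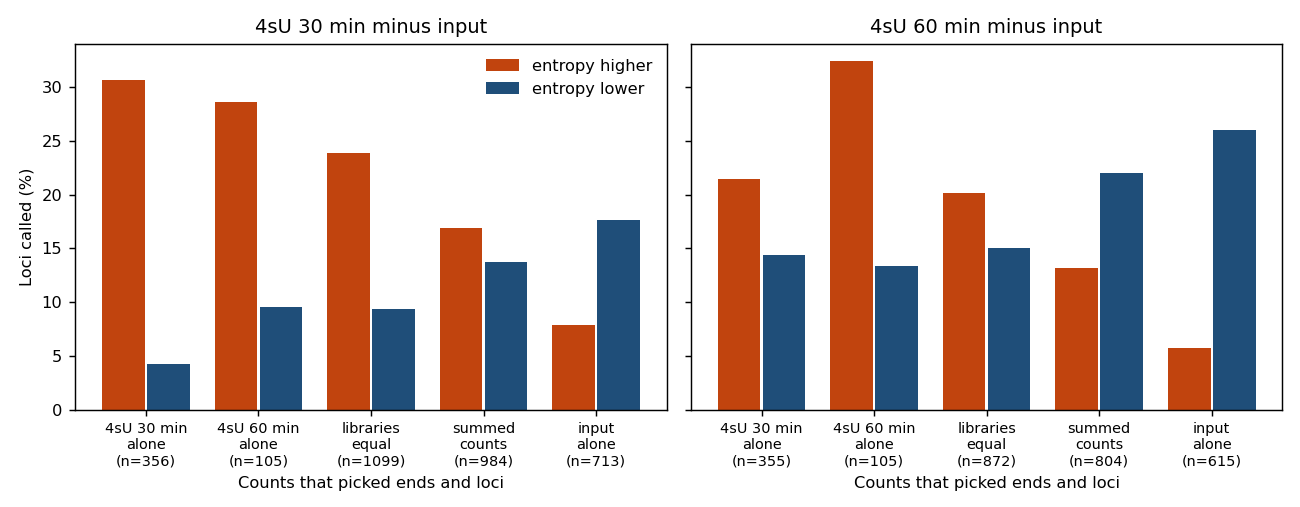
Bars show the share of loci (%) whose entropy of end use was at least 0.2 bits higher (orange) or lower (blue) in a captured library than in input, with ends and loci picked from 5 sets of counts; n is the number of loci compared. The higher calls exceed the lower ones with either captured library alone or equal weights, and the lower ones exceed the higher with input alone.

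Single loci showed how end use narrowed or widened. On the minus strand of chromosome 16, at the locus from 23477912 described above, entropy was 0.919 bits in 30 min 4sU, 0.852 in 60 min 4sU and 1.85 in input, a fall of 0.936 bits at 30 min (interval -1.01 to -0.864). At the chromosome 13 locus from 77457567, it was 1.74, 1.64 and 0.866 bits, which was 0.873 bits higher at 30 min (0.801 to 0.945). On the plus strand of chromosome X, from 70793672 to 70795740, it was 0.940, 1.30 and 1.64 bits, and the last end held 80.4%, 68.4% and 55.4%. On the plus strand of chromosome 1, from 67452174 to 67453713, it was 0.985, 1.06 and 1.63 bits, while the third end held 79.4%, 78.2% and 56.0%. On the plus strand of chromosome 3, from 44777016 to 44781122, it was 1.20, 1.19 and 1.87 bits, and the second end held 75.1%, 73.6% and 41.6%. Use thus narrowed onto the last end at some loci and onto an inner end at others.

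At other loci, entropy was higher in captured RNA and an end well used there was nearly missing from input. On the minus strand of chromosome 19, from 55914411 to 55911114, the first end held 105 of 283 counts in 30 min 4sU (37.1%), 159 of 247 in 60 min 4sU (64.4%) and 1 of 237 in input (0.422%). Its second end, at 55912649, held 43.1%, 23.5% and 78.1%. On the plus strand of chromosome 21, from 9826019 to 9827471, the first end held 15.6%, 37.9% and 0.935%, with 196, 309 and 3 counts. This end was spread out, with 4.72% of its counts at its highest position, against 81.5% for the first end on chromosome 19. Whether so spread a site is a single poly(A) end was not tested. The chromosome 21 locus stood at 131 CPM in 30 min 4sU, 132 in 60 min 4sU and 9.80 in input. Among ends of loci with 100 counts in both libraries, 2 of 3617 held at least 20% in 30 min 4sU and at most 2% in input. For 60 min 4sU and input this held for 15 of 2228 ends, of which 5 were first, 7 inner and 3 last ends, and 6 of the 15 had at least 90% of their counts at a single position. In the other direction, 2 ends were at least 20% in input and at most 2% in 30 min 4sU, and 1 for 60 min 4sU. These ends were counted only in loci with 4 or more ends, so there is no background share. An end nearly missing from input passed the 5% minimum only through the captured libraries, so its high share there is tied to the choice.

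Gains and losses at the outer and inner ends combined in different ways. At 30 min against input, none of the 3 shares (first, inner and last) was called at 513 of 984 loci (52.1%), against 52.7% of all 2370 loci with 3 or more ends. Calls on a pair of shares were a higher last with a lower inner share at 60 loci (6.10%, against 5.27%), a higher inner with a lower first share at 52 (5.28%, against 4.77%), and a higher last with a lower first share at 46 (4.67%, against 166 of the 2370). In the upstream direction, the first share was higher and the inner lower at 42 loci (4.27%, against 3.88%). The inner share was higher and the last lower at 41 (4.17%, against 3.84%), and the first higher and the last lower at 21 (2.13%, against 2.57%). At 60 min against input, none was called at 371 of 804 loci (46.1%, against 46.9% of 1988), and a higher last with a lower inner share was the most frequent pair, at 100 loci (12.4%, against 9.31%). The other pairs, in the order above, were seen at 28, 46, 41, 37 and 14 loci. At 60 min against 30 min, none was called at 546 of 807 loci (67.7%, against 67.8% of 1996), and a higher last with a lower inner share was seen at 62 (7.68%, against 5.56%). The loci with 3 or more ends include those with 4 or more.

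The strongest end of a locus often differed between libraries. No interval or smallest difference was required here, so ends with nearly equal counts can trade places by counting error. It differed between 30 min 4sU and input at 232 of 984 loci (23.6%, background 11.5%), and lay further downstream in 30 min 4sU at 145 and further upstream at 87. Between 60 min 4sU and input it differed at 218 of 804 loci (27.1%, background 13.6%), 139 downstream and 79 upstream. Between 60 min 4sU and 30 min 4sU it differed at 147 of 807 loci (18.2%, background 9.05%), 84 downstream and 63 upstream. At least 1 end changed by 10 points at 574 loci (58.3%) at 30 min, 528 (65.7%) at 60 min and 348 (43.1%) between times, against backgrounds of 38.7%, 42.6% and 25.5%. The background holds loci with fewer ends, which have fewer ways to differ. For the split into downstream and upstream, no background was computed.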

How the data were processed

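The authors deposited whole-number read counts for each position and strand, a table for each library, not normalized. The tools named, per the submitters' processing notes, are cutadapt and Bowtie; no source used here gives versions, a build or the handling of reads with several matches. Sites, loci, shares and entropies were computed with Python 3.11.15, numpy 2.4.6, pandas 2.3.3 and scipy 1.17.1. Greedy merging started from the highest position. Differences of shares carry Newcombe 95% intervals, single shares Wilson intervals, and entropies and mean positions normal intervals with multinomial variances. Changes needed 10 percentage points or 0.2 bits, and an interval without 0. Loci named were, among 497 with 100 counts in every library, those with the largest gains and losses of the last end or of entropy, the most ends or the most counts; a part of these 40 loci is described. Scripts were tested on simulated data. Members, rule and comparisons were chosen with earlier results of these data known.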

Additional observations from a re-analysis of the deposited data

Results flagged for a closer look

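Counts within the loci but outside the kept ends were not used in the comparisons, and they made up a larger share in captured RNA. They were 5.25% of same-strand counts in 30 min 4sU (22636 of 431176) and 5.22% in 60 min 4sU (10464 of 200355), against 4.87% in input (64971 of 1332779). The median over loci was 4.38%, 4.26% and 4.18%. The kept ends were picked from summed counts, of which input gave 67.9%, so the lower share outside them in input is tied to the choice. With 1 library a group, no group was large enough to look for a sample apart from the rest.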

How the results depend on the processing

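Of 273 median changes recomputed under 21 settings for 15 results, 206 stayed within the main median's interval, 60 moved further and 7 reversed. That interval is of the median over loci, so it reflects the spread among loci, not counting error or differences between replicates. Whether the medians were stable within measurement error was not tested, nor were the causes of the changes. No paired analysis was possible because each group had 1 library. Values are given for 30 min against input, 60 min against input and 60 against 30 min, in that order where all 3 are named. Gaps of at most 500 nt gave -0.0844, 0.0397 and 0.356 points for the last end, -0.389 and -0.251 for the first end against input, 0.153 for inner ends at 30 min, and -0.488, -0.737 and 4.29 nt for the mean position. Gaps of 1000 nt gave 0.564, 1.40 and 1.10 points for the last end, -0.925 for the first end at 60 min against input, and 7.58, 11.3 and 10.6 nt. Gaps of 5000 nt gave 2.64 and 4.00 points for the last end against input, and 59.6, 122.8 and 45.0 nt.

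A smallest share of 2% gave -0.747 and -1.10 points for the first end against input, 1.97 and 0.732 for the last end at 60 min against input and against 30 min, 0.0322 and -0.00893 bits for entropy against input, and 38.8 and 16.0 nt at 60 min against input and 30 min. A smallest share of 10% gave 2.53 points for the last end at 30 min against input and 2.49 for 60 against 30 min. It gave -2.39, -3.86 and -1.60 points for the first end, -0.157 for inner ends between times, -0.0139 bits at 30 min against input and -0.0270 between times, and 44.2, 70.3 and 34.6 nt. Merging within 12 nt gave 36.3 nt at 60 min against input and 17.4 nt between times.

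With libraries scaled to the same total, entropy changed by 0.0515 and 0.0186 bits against input, and the first end by -0.372 points at 30 min. Picking from input alone gave -0.0402 and -0.0873 bits against input. Picking from 30 min 4sU alone gave 0.0859 and 0.0257 bits, first ends of -0.174 and -1.23 points, inner ends of 0.589 points at 30 min and a mean position of 14.7 nt at 30 min. Picking from 60 min 4sU alone gave 0.0618, 0.0492 and 0.00750 bits, 4.00 points for the last end and -1.27 for the first end at 60 min against input, and -0.0219 for the first end between times. At least 200 counts in both libraries gave 4.86 and -2.69 points for last and first ends and 82.8 nt at 60 min against input. Loci of 5 or more ends gave -0.787 points for the first end at 30 min, -0.0746 and -0.0742 bits at 60 min against input and between times, and 79.4 and 53.7 nt for the same comparisons.

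Counts of changed loci moved by over 1.5 times under settings that alter how many loci are compared, and with a larger change required of the same loci. At 20 points, 44 last ends were higher and 23 lower at 30 min, 88 and 21 at 60 min, and 25 and 13 between times. At 0.4 bits, entropy was higher at 45 and lower at 35 loci, 29 and 78, and 11 and 41. Against 169 loci with a higher last end at 30 min, the alternatives gave 20 to 289, and against 94 lower ones 9 to 126. At 60 min they gave 24 to 373 against 224 higher, and 11 to 106 against 73 lower; between times, 10 to 173 against 105 higher and 7 to 72 against 51 lower. For entropy they gave 27 to 417 against 166 higher and 10 to 255 against 135 lower at 30 min, 21 to 308 against 106 and 14 to 351 against 177 at 60 min, and 9 to 135 against 50 and 5 to 280 against 126 between times. For first ends, the 3 comparisons in the same order gave higher calls of 14 to 174 against 103, 11 to 130 against 83, 6 to 89 against 50, and lower calls of 17 to 247 against 152, 22 to 201 against 120, 8 to 85 against 49. For inner ends, the 3 comparisons in the same order gave higher calls of 17 to 200 against 120, 16 to 170 against 96, 7 to 95 against 59, and lower calls of 22 to 287 against 153, 23 to 314 against 181, 13 to 190 against 113. For the mean position, the 3 comparisons in the same order gave higher calls of 45 to 682 against 356, 53 to 633 against 329, 37 to 380 against 188, and lower calls of 29 to 389 against 201, 24 to 252 against 136, 16 to 217 against 101. Entropy at equal depth and loci without opposite-strand sites were tried after the data were seen. Depth limits 60 min 4sU most, where 221 of the 1028 loci had under 50 counts.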

Other observations

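Of the 1028 loci, 95 (9.24%) held a site of at least 20 counts on the opposite strand between their outer ends. Opposite-strand counts were 11.4% of all counts within the loci in 30 min 4sU, 15.6% in 60 min 4sU and 27.6% in input. Leaving these loci out gave a median change of the last end of 1.68 points at 30 min, 2.91 at 60 min and 1.78 between times.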
